A study of Mustela putorius furo with 8 samples.

Results

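AP-1 and immediate early genes were followed through single-cell RNA sequencing of ferret pancreatic ductal epithelia (PDE). The 10 members were chosen by name, as FOS, FOSB, FOSL1, JUN, JUNB, JUND, EGR1, ATF3, BTG2 and KLF4, out of 27912 genes in the count matrices. All 10 had a UMI in every library, and all 10 were among the 9427 genes with a mean of at least 5 UMIs per 1000000 (CPM) over the 8 libraries, which gave the background for each count below. No threshold on a measured value was used to choose them, but earlier results of these data were known at the choice. Counts of members beside the background are therefore descriptions.

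The 4 WT libraries came from wild-type cultures and the 4 CF libraries from cultures of the genotype CFTR KO/KO, in which the chloride channel gene CFTR is knocked out. Ducts were taken from ferrets aged 1 to 3 days, and the ductal cells were passaged 10 times before they were grown on transwell inserts and moved to an air-liquid interface (ALI). Each genotype was sampled at days 2, 5, 7 and 9 of ALI, and each library held the pooled cells of 3 donors, so that every genotype and day was a single library without replicates. All libraries were taken apart with Accutase, treated with DNase and cleared of dead cells, so no library shows the members in cells that had not been dissociated.

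AP-1 is a pair of basic leucine zipper proteins, built from a FOS protein and a JUN protein or from a pair of JUN proteins, that binds DNA and turns on genes of growth, wound repair and stress. Its genes belong to the immediate early genes, whose RNA rises within minutes of a growth factor, injury or stress signal without new protein synthesis and is short-lived. In cultured epithelia these genes respond to EGF receptor and MAP kinase signalling and also to handling of the cells, including enzymatic dissociation.

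The libraries held 1607 to 6224 retained cells and 34735952 to 114585136 UMIs. Cells with fewer than 3000 UMIs numbered 39 to 224 per library, except in CF day 7, where 411 of 1607 cells (25.6%) were that shallow. CFTR was at 6.57 to 29.5 CPM in WT and at 2.50 to 11.4 CPM in CF, so CF libraries still held reads assigned to it. Summed duct epithelium markers were at 7883 to 10364 CPM in WT and 9168 to 9804 CPM in CF, whereas 4 endocrine markers summed to at most 0.112 CPM. Other marker sums moved between libraries. Centroacinar progenitor markers summed to 823, 1303, 1639 and 2838 CPM in WT and 1419, 1306, 1050 and 954 CPM in CF at days 2, 5, 7 and 9, cycling markers to 154, 129, 46.3 and 2.55 CPM in WT and 62.3, 35.6, 11.3 and 3.62 CPM in CF, and fibroblast markers to at most 5.79 CPM in WT and 32.8 CPM in CF. Their part in the members' levels was not tested. The transcription factor SOX2 was at 68.5 to 115 CPM in WT and had 1 to 3 UMIs in each whole CF library. SOX2-high cells were therefore present in WT only, and their share and the genotype cannot be told apart in the library totals. The median share of UMIs from mitochondrial genes (percent.mt) was 9.17, 6.63, 10.7 and 10.3% in WT at days 2, 5, 7 and 9 and 7.04, 6.76, 5.71 and 5.65% in CF.

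A gene was counted as higher or lower in CF when log2(CPM + 1) differed by at least 1, which is 2-fold, and the words rose and fell are kept for such differences. There is no replicate check. Intervals are 95% limits for counting error only, exact Poisson for a level, conditional binomial for a ratio and Clopper-Pearson for a share of cells. UMIs of a library are not independent samples of the genotype. Genotypes are said not to overlap when all CF values lay on 1 side of all WT values. The share of all genes that did so was not taken, so these statements are descriptions.

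JUN, JUND, BTG2 and KLF4 were lower in CF than in WT on all 4 days. Of all genes tested, 17.6% were lower in CF on all 4 days, against 4 of the 10 members. At least 2-fold lower in CF were 2 members at day 2 (3.47% of all genes), 0 at day 5 (3.89%), 1 at day 7 (2.87%) and 6 at day 9 (3.21%). At least 2-fold higher in CF was FOSL1 at day 2 (4.40% of all genes), and no member at day 5 (2.21%), day 7 (4.32%) or day 9 (3.06%). The median CF minus WT difference of the members was -0.12, -0.17, -0.51 and -1.18 on the log2 scale at days 2, 5, 7 and 9, beside -0.00, -0.05, 0.13 and 0.08 for all genes tested.

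FOS encodes the founding FOS protein, which pairs with JUN proteins. Its level in WT was 405, 489, 495 and 539 CPM at days 2, 5, 7 and 9, and in CF 446, 427, 445 and 340 CPM. WT was lowest at day 2 and highest at day 9, whereas CF was lowest at day 9, and the genotypes overlapped. The CF to WT ratio at day 9 was 0.631 (0.620 to 0.642). FOSB, a close relative of FOS, was at 166, 165, 158 and 293 CPM in WT and 214, 149, 139 and 76.0 CPM in CF. CF was above WT at day 2 and below every WT library at days 5, 7 and 9. FOSB fell in CF against WT at day 9, with a ratio of 0.259 (0.251 to 0.268). FOSL1 encodes FRA1, a FOS family protein that lacks the strong activation domain of FOS. It was at 20.8, 16.0, 12.4 and 21.0 CPM in WT and 49.3, 15.4, 6.97 and 7.84 CPM in CF, the last from 392 UMIs. CF day 2 was the highest library and CF days 7 and 9 the lowest, and the FOSL1 ratio was 2.37 (2.25 to 2.48) at day 2 and 0.373 (0.333 to 0.416) at day 9. In the RefSeq annotation of ASM1176430v1.1, FOSL1 (10797022 to 10805336) overlaps the start of its neighbour CCDC85B (10797729), so some of its UMIs may belong to that gene. The authors counted with another annotation of that assembly, whose limits for the gene were not used here.

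JUN encodes c-Jun, the partner shared by all FOS proteins. Its level was 968, 988, 1015 and 844 CPM in WT and 405, 573, 522 and 333 CPM in CF. Every WT library was above every CF library. The CF to WT ratio was 0.419 (0.414 to 0.424) at day 2 and 0.394 (0.388 to 0.401) at day 9, where JUN was called lower, and 0.580 and 0.514 at days 5 and 7, where JUN was not called. JUND, the JUN protein that is found in resting cells as well, was at 167, 203, 209 and 235 CPM in WT and 72.0, 102, 125 and 113 CPM in CF. JUND groups did not overlap either, and its ratio was 0.432, 0.499, 0.600 and 0.482 (0.468 to 0.497 at day 9). It was called lower at days 2 and 9, and the day 5 difference of -0.99 lay just under the limit. JUNB, a JUN protein that can oppose c-Jun, stood apart from both. It was at 488, 484, 632 and 386 CPM in WT and 467, 528, 516 and 378 CPM in CF, the genotypes overlapped, and its ratio was between 0.817 and 1.09.

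EGR1, a zinc finger immediate early factor outside AP-1, was at 375, 318, 387 and 485 CPM in WT and 331, 387, 402 and 288 CPM in CF. The genotypes overlapped, CF was higher at days 5 and 7, and the day 9 ratio was 0.594. ATF3, a stress-induced leucine zipper factor that can pair with JUN proteins, was at 351, 700, 638 and 942 CPM in WT and 477, 641, 639 and 584 CPM in CF. At day 7 the ATF3 levels of both genotypes were within 1 CPM, and at day 9 the ratio was 0.620. KLF4, a zinc finger factor of epithelial differentiation, was at 54.5, 37.0, 44.8 and 52.6 CPM in WT and 29.4, 19.7, 22.9 and 15.8 CPM in CF. All CF libraries were below all WT libraries for KLF4, with ratios of 0.540, 0.531, 0.511 and 0.300 (0.278 to 0.324 at day 9). BTG2, an antiproliferative gene that p53 and growth factors induce, was at 377, 415, 519 and 485 CPM in WT and 331, 292, 244 and 155 CPM in CF. Its ratio went from 0.877 at day 2 through 0.704 and 0.470 to 0.320 (0.312 to 0.327) at day 9. The BTG2 groups did not overlap, and it was the member called lower at day 7.

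**Figure D1:**
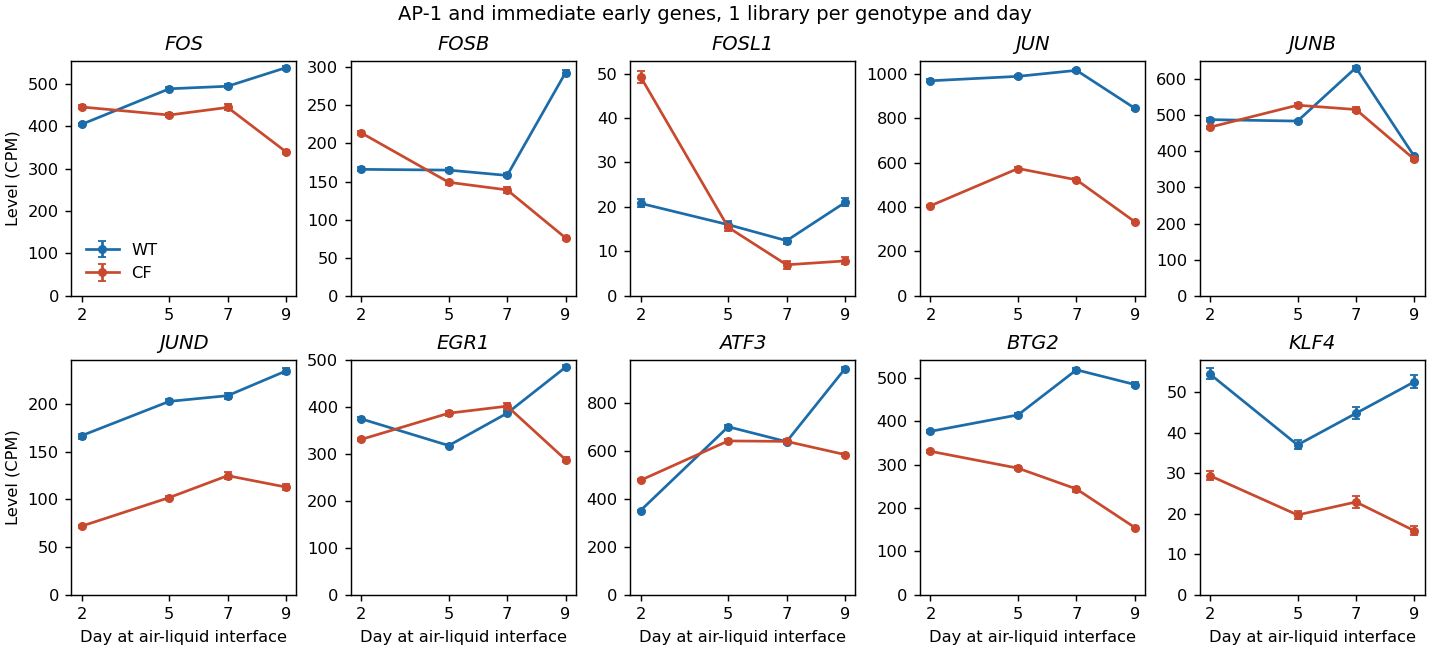
Level of each of the 10 members (CPM, with 95% exact Poisson intervals for counting error) by day at ALI in WT and CF, 1 library per point. JUN, JUND, KLF4 and BTG2 lie lower in CF at all 4 days, while the JUNB lines cross and FOSB and FOSL1 start above WT in CF and end below it.

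WT was also restricted to the cells of its 12 SOX2-low clusters, which left 892, 1801, 1276 and 1510 WT cells. The members' median CF minus WT difference was then -0.63, -0.20, -0.06 and -0.66 at days 2, 5, 7 and 9, beside -0.02, 0.01, 0.16 and 0.05 for all genes tested. The part of SOX2-high cells in the differences was not tested. JUN then differed by -2.08, -1.38, -1.58 and -1.68 at days 2, 5, 7 and 9, and BTG2 by -1.27, -0.85, -1.38 and -1.53. JUND differed by -1.60, -0.92, -0.65 and -0.84, JUNB by -0.92, -0.46, -0.82 and -0.64, and EGR1 by -0.54, -0.11, -0.08 and -0.65. At day 2 the direction turned for FOSB, from 0.36 to -0.36, and for ATF3, from 0.44 to -0.72. JUN, JUND, BTG2, JUNB and EGR1 were thus lower in CF on every day in that comparison. KLF4 was not, since it differed by 0.34, -0.09, 0.33 and -0.58. FOSB at day 9 differed by -0.90 and FOSL1 by 0.23, which turned the direction of FOSL1 and left 2 members, JUN and BTG2, at least 2-fold lower at day 9 (1.38% of all genes in that comparison). Across WT clusters the median level of JUN was 1455 CPM in 12 SOX2-low clusters and 770 CPM in 27 SOX2-high clusters, and that of KLF4 was 19.5 and 56.4 CPM.

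From day 2 to day 9 the members' median log2 difference was 0.37 in WT and -0.35 in CF, beside 0.10 and 0.14 for all genes tested. Among cells of 5 to 10% percent.mt alone, it was -0.02 in WT and -0.56 in CF. In WT, ATF3 rose by 1.42 on the log2 scale, a ratio of 2.68 (2.65 to 2.71), and it was the 1 member to rise 2-fold (9.01% of all genes rose), while no member fell (5.24% of all genes). FOSB was at a ratio of 1.76 and JUND at a log2 difference of 0.49. In CF, no member rose (6.22% of all genes), and 3 fell (2.94%). These were FOSL1, with a ratio of 0.159 (0.143 to 0.176), FOSB, with 0.355, and BTG2, with 0.468. JUND was at a ratio of 1.58 in CF, so it was higher at day 9 than at day 2 in both genotypes.

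The share of cells with at least 1 UMI was compared at equal depth. With each cell thinned to 3000 UMIs, JUN was detected in 84.0, 80.3, 83.7 and 81.5% of WT cells at days 2, 5, 7 and 9 and in 64.9, 70.1, 65.1 and 54.2% of CF cells. FOSB was detected in 44.3% (42.9 to 45.6) of WT and 15.5% (14.1 to 17.1) of CF cells at day 9, where 136 WT and 224 CF cells were too shallow to enter, and in 67.5 and 37.9% without thinning. BTG2 was detected in 66.6% of WT and 35.1% of CF cells at day 9. FOS was detected in 57.6, 52.5, 58.1 and 57.5% of WT cells and in 59.1, 57.3, 53.8 and 44.8% of CF cells, so at day 5 its share was lower in WT although its CPM was higher. No cell type of these cultures is known to lack the members, so the part of free RNA in these shares was not tested. FOS, FOSB, JUN, JUNB and EGR1 were all detected in the same thinned cell in 9.86, 8.08, 11.7 and 16.2% of WT cells and in 10.4, 8.65, 9.28 and 3.62% of CF cells. At day 9 those shares had intervals of 15.2 to 17.2 and 2.89 to 4.47. Cells with none of the 5 were 2.52% of WT and 7.59% of CF cells at day 9. FOSB was detected in 61.5% of WT day 9 cells with FOS and 21.0% of those without, and in CF in 25.1 and 7.76%, so the pair shared cells in both genotypes at different levels.

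The submitters named the cells of each cluster ductal, centroacinar, centroacinar progenitor, acinar or proliferating. Ductal cells line the ducts, and centroacinar cells sit where a duct meets an acinus. The names were compared between genotypes within the clusters whose leading genes did not go against the name and whose median UMI count was at least 33.3% of that of their genotype's cells, which left out WT clusters 1, 20, 29, 35 and 38 and CF clusters 8, 9, 13, 19, 21, 23, 27 and 28. Most kept clusters had no marker of their class among their leading genes, and of the kept centroacinar clusters CF cluster 15 alone had any. Most names were thus neither contradicted nor backed by these markers. None of 6 acinar enzyme genes was in the files. Because clusters were built from these genes among others, levels by class are a description. No class comparison was restricted to SOX2-low WT clusters, and SOX2-high cells were present in WT only. Their share in a class and the genotype cannot be told apart in these comparisons either. Centroacinar cells at day 2 were too few in WT, with 27 cells, to be compared.

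Centroacinar cells differed most at day 9, with 2192 WT and 1643 CF cells. There 9 of 10 members were at least 2-fold lower in CF (6.0% of all genes), that is all but JUNB, and the median over the members was -1.40 beside 0.17 for all genes. FOSB was at 408 CPM in WT and 51.3 CPM in CF, a ratio of 0.126 (0.120 to 0.132). FOS was at 664 and 247 CPM, JUN at 839 and 324 CPM, and EGR1 at 588 and 274 CPM. BTG2 was at 544 and 150 CPM, a ratio of 0.275 (0.267 to 0.284). JUNB went the other way, at 279 CPM in WT and 415 CPM in CF, a ratio of 1.49 (1.45 to 1.53). The cells came from different clusters of that name, with cluster 3 holding 40.9% of the WT class and clusters 3 and 7 of the separate CF clustering holding 26.6 and 24.2% of the CF class. On earlier days fewer members differed. At day 5, FOSL1, JUND and KLF4 were lower (5.80% of all genes), and JUNB was higher by 1.38 (7.52% of all genes). At day 7, FOSL1 alone was lower (5.14%). No member was 2-fold higher at day 9 (9.22% of all genes).

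In centroacinar progenitor cells the lower levels came earlier. With 711 WT and 614 CF cells at day 2, KLF4 was the 1 member at least 2-fold lower in CF (3.38% of all genes). At day 5, 7 members were lower (4.66%), namely FOS, FOSB, FOSL1, JUN, JUND, BTG2 and KLF4, and the median over the members was -1.24 beside 0.04 for all genes. WT cluster 1, 48.3% of the WT class at day 5, was left out there. With every cluster of the name kept, 5 members were lower at day 5 (4.37% of all genes), since FOS was at 796 CPM in WT and 531 CPM in CF and JUN at 486 and 276 CPM. At day 7, 7 were lower (4.69%), with JUNB and EGR1 in place of FOS and JUND, and at day 9 there were 6 (5.46%). BTG2 differed by -0.64, -1.39, -2.19 and -1.83 over the 4 days. FOSB was at 256, 392, 294 and 465 CPM in WT progenitor cells and at 175, 94.4, 97.5 and 128 CPM in CF. KLF4 was at 108, 97.8, 89.8 and 83.2 CPM in WT and 35.9, 19.6, 25.0 and 26.8 CPM in CF, and these did not overlap for either gene. KLF4 was among the genes used to name the progenitor class, so its level there is no separate finding. At day 9 the largest clusters were WT cluster 21 with 46.4% and CF cluster 18 with 56.5% of the class.

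Ductal cells had another pattern. JUN, JUND and KLF4 were at least 2-fold lower in CF at day 2 (2.82% of all genes), JUN at day 5 (5.90%), JUN and JUND at day 7 (7.43%) and no member at day 9 (9.90%). JUN differed by -1.08, -1.12, -1.36 and -0.50 over the days. BTG2 differed by 0.10, -0.21, -0.45 and -0.41, and KLF4 by -1.03, 0.18, -0.16 and 0.08, the last 3 of which were within counting error. FOSL1 was higher in CF at day 2 (3.68% of all genes), no member at day 5 (3.85%), FOSB at day 7 (4.86%) and FOS and FOSB at day 9 (4.58%). FOSB was at 159, 92.7, 87.5 and 101 CPM in WT ductal cells and at 240, 179, 236 and 331 CPM in CF ductal cells, so every CF value was above every WT value. The CF class held 1794, 495, 88 and 51 cells, and the 51 cells of day 9 were 18.0% of the 284 cells so named, since cluster 19 with 82.0% of them was left out. With every cluster of the name kept, FOSB at day 9 was at 193 CPM in CF and no longer 2-fold higher, FOS was the 1 member higher (4.92% of all genes), and JUN, JUNB and BTG2 were at least 2-fold lower (15.2%).

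**Figure D2:**
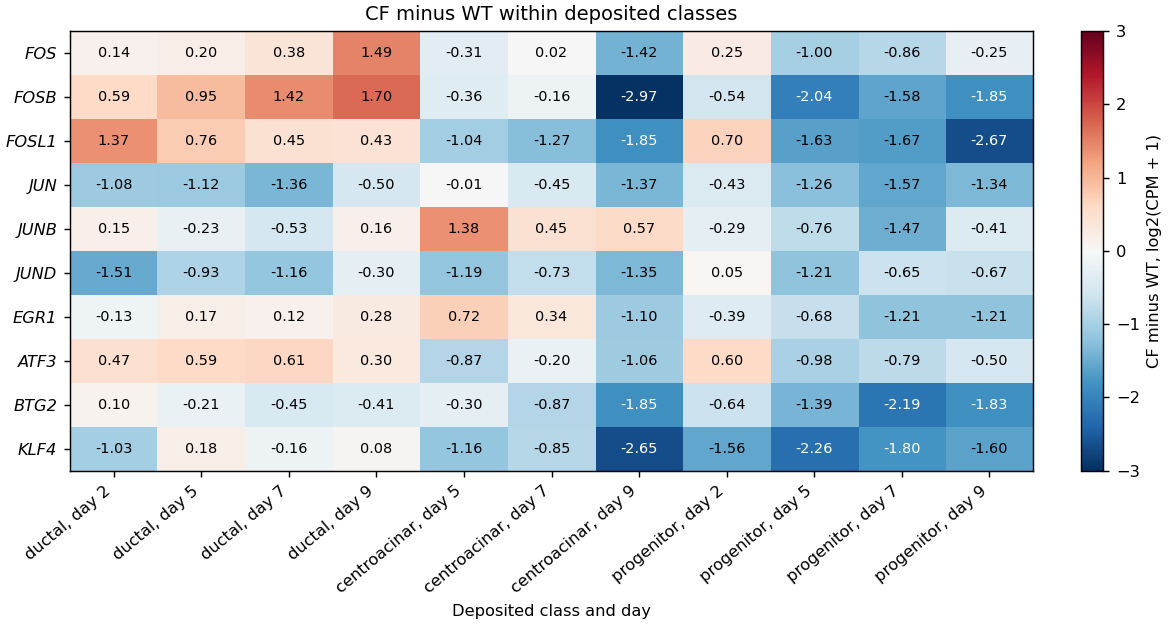
CF minus WT difference on log2(CPM + 1), as colour and number, for each member (vertical axis) in ductal, centroacinar and centroacinar progenitor cells by day (horizontal axis). Only clusters whose leading genes did not go against the name, and not of low UMI count, were used. Red is higher and blue lower in CF: FOSB was above 0 in ductal cells on all 4 days, with 51 CF cells at day 9, and below 0 in both centroacinar classes on each day compared.

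Inside each library, the 25% of cells with the highest percent.mt (high-mt cells) were compared with the 25% with the lowest (low-mt cells). Mitochondrial UMIs were left out of the denominator, so levels here are CPM of all other UMIs. In WT from day 5 on, FOS, FOSB, EGR1 and KLF4 were at least 2-fold higher in high-mt cells, joined by ATF3 at days 5 and 7. This was 5 of 10 members at day 5 (6.73% of all genes), 5 at day 7 (7.46%) and 4 at day 9 (8.25%), and none at day 2 (0.690%). No member was 2-fold lower there in WT, where 1.08, 6.26, 9.10 and 5.28% of all genes were. The median over the members was -0.32, 0.87, 0.84 and 0.87 at days 2, 5, 7 and 9 beside -0.05, -0.04, -0.07 and 0.11 for all genes.

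FOS was at 440, 235, 361 and 342 CPM in low-mt cells of WT and at 527, 784, 938 and 858 CPM in high-mt cells at days 2, 5, 7 and 9. From day 5 on, every high-mt value was above every low-mt value. EGR1 was at 148 and 433 CPM at day 5, 287 and 653 CPM at day 7, and 281 and 848 CPM at day 9. In WT day 9 the level of FOS was 306 CPM in 237 cells under 5% percent.mt, 427 from 5 to 10%, 756 from 10 to 15% and 856 in 858 cells from 15 to 20%, so it was higher in each step. KLF4 was at 33.6, 40.9, 74.0 and 84.8 CPM over the same steps. WT day 7 did not go up in each step, with FOS at 650, 369, 590 and 986 CPM and KLF4 at 64.5, 24.4, 55.4 and 108 CPM, of which the lowest step held 83 cells. At WT day 2 FOS was at 523, 414, 503 and 592 CPM. Over all cells of a library, JUN, JUNB and JUND were not 2-fold apart. Their high-mt minus low-mt log2 differences at WT days 5, 7 and 9 were 0.41, -0.04 and 0.87 for JUN, 0.10, -0.57 and -0.03 for JUNB, and 0.16, -0.19 and -0.01 for JUND. Values of JUN inside classes are given below.

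In CF at day 2, FOS was lower in high-mt cells, at 464 CPM beside 573 CPM in low-mt cells. It was higher in high-mt cells by 0.26, 0.66 and 0.91 at days 5, 7 and 9 on the log2 scale, short of 2-fold. With cells of at least 3000 UMIs the day 7 value turned to -0.12, and within classes the values at days 5 and 9 were 0.09 and 0.03. At least 2-fold higher in high-mt cells were 0 members at day 2 (0.212% of all genes), 0 at day 5 (3.85%), 0 at day 7 (4.39%) and KLF4 at day 9 (8.61%). At least 2-fold lower were 0 at day 2 (0.923%), JUN and JUNB at day 5 (8.02%), 0 at day 7 (6.80%) and JUNB at day 9 (13.3%). JUNB was at 611, 835, 524 and 576 CPM in low-mt cells and at 309, 263, 283 and 190 CPM in high-mt cells of CF, with no overlap. EGR1 was at 376 CPM in low-mt and 303 CPM in high-mt cells at CF day 9, whereas it was higher in high-mt cells at WT day 9. Over steps of 5% percent.mt EGR1 was at 375, 260, 265 and 405 CPM at CF day 9, so it did not go down in each step. Inside classes of CF day 9 EGR1 differed by 0.22 in ductal, -0.99 in centroacinar and 0.31 in progenitor cells. At CF day 7 the low-mt cells had a median of 1007 UMIs and 91.5% of them were under 3000 UMIs, and at CF day 9 25.2% were, so the CF day 7 values rest on shallow cells.

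**Figure D3:**
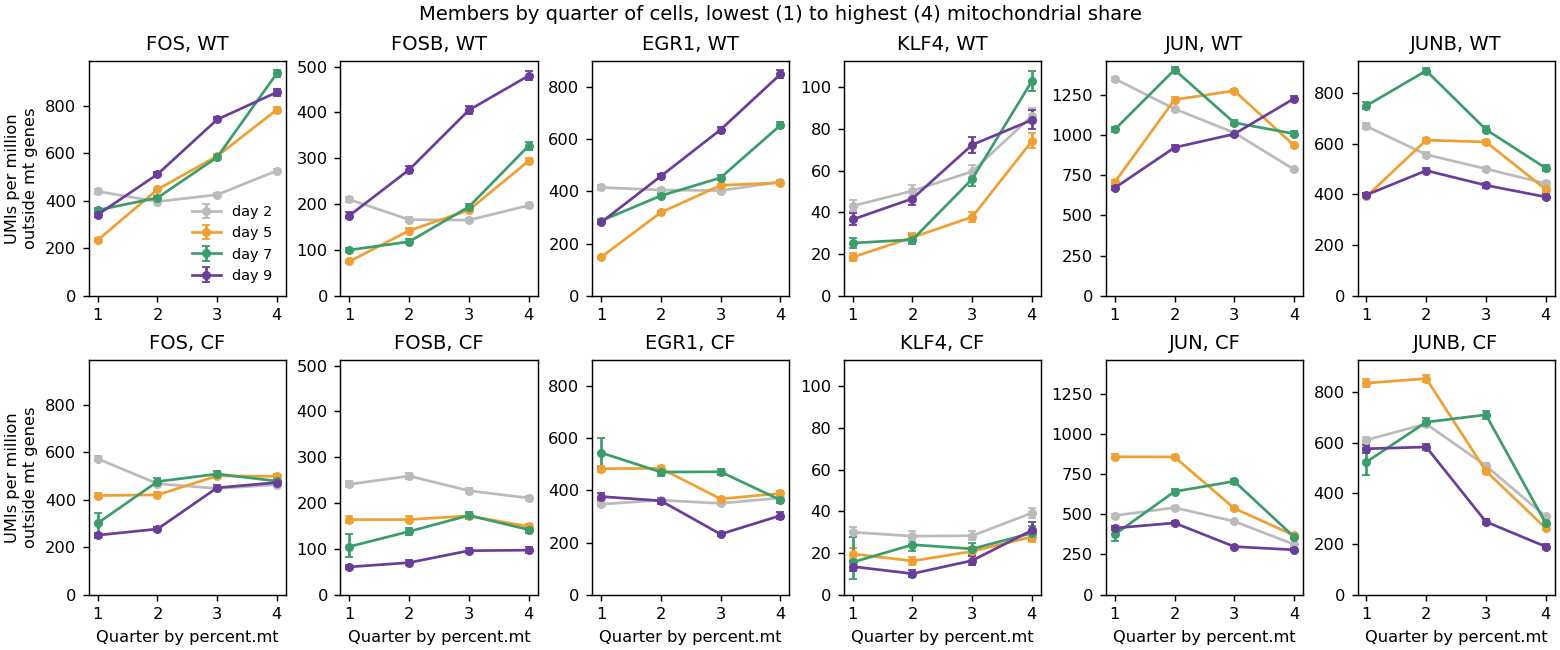
Level of FOS, FOSB, EGR1, KLF4, JUN and JUNB (UMIs per 1000000 outside mitochondrial genes, with 95% exact Poisson intervals) in 4 equal sets of cells ordered from lowest (1) to highest (4) percent.mt, by day, with WT above and CF below. In WT the FOS lines of days 5, 7 and 9 go up from 235, 361 and 342 to 784, 938 and 858, and in CF the JUNB lines end at 190 to 309 from 524 to 835.

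Cell classes moved with percent.mt, and their part in these differences was tested only as far as the within-class values below go. In WT day 5 the ductal share was 83.0% of low-mt and 30.9% of high-mt cells, and the progenitor share 8.03 and 45.6%. In WT day 9 ductal cells made up 51.2 and 28.1%, and centroacinar cells 29.0 and 59.5%. In CF day 2 ductal cells made up 38.0% of low-mt and 82.0% of high-mt cells, and centroacinar cells 33.9 and 7.91%. Median UMIs there were 14981 and 27739. In CF day 9 ductal cells made up 0.321 and 33.9%, and centroacinar cells 89.1 and 58.8%. High-mt and low-mt cells were also drawn inside each class, with every cluster of the name included. FOS and EGR1 were then still 2-fold higher at WT day 5 (1.00 and 1.32), where 3.34% of all genes were, and FOS, FOSB and EGR1 at WT day 9 (1.09, 1.09 and 1.33), where 6.52% were. No member was at WT day 7 (EGR1 at 0.94), where 2.92% of all genes were. Among all WT cells named ductal, every cluster of the name included, FOS was at 151 CPM in low-mt and 575 CPM in high-mt cells at day 5 and at 132 and 621 CPM at day 9. FOSB was at 28.5 and 132 CPM at day 5 and at 36.0 and 190 CPM at day 9. JUN, not 2-fold apart over whole libraries, was at 628 and 1554 CPM in these ductal cells at day 5 and at 556 and 1301 CPM at day 9. Its difference at days 5, 7 and 9 was 1.31, 0.61 and 1.22 in ductal cells. In centroacinar cells it was 0.07, 0.21 and 0.59, and in progenitor cells 0.13, 0.14 and 0.59. Again with every cluster of each name, the FOS difference in WT was 1.93, 0.79 and 2.23 in ductal cells at days 5, 7 and 9, 0.83, 1.33 and 0.72 in centroacinar cells and 0.24, 0.42 and 0.93 in progenitor cells, above 0 in each. WT cluster 1, left out of the class comparisons above, was 48.3% of those progenitor cells at day 5. Among all CF cells named ductal, of which cluster 19 was 82.0% at day 9, FOS was at 485 and 444 CPM at day 5 and at 894 and 659 CPM at day 9. In all CF cells named centroacinar the FOS difference was -0.46, 0.36, 0.75 and 0.03 at days 2, 5, 7 and 9, and in all CF cells named progenitor -0.52, -0.35, 0.14 and 0.89, so it had no single direction over the CF classes. Of these cells at day 7, 66.5 and 58.9% were in the clusters kept for the class comparisons above. The JUNB difference at CF days 2, 5, 7 and 9 was -1.50, -1.25, -2.03 and -1.34 in all cells named ductal. It was -0.30, -0.35, -0.89 and -0.65 in those named progenitor. In those named centroacinar it was -0.16, -1.56, 0.15 and -1.68, so JUNB was not lower in high-mt cells of that class at day 7. With both genotypes limited to cells of 5 to 10% percent.mt, the CF minus WT difference at day 9 was -0.02 for FOS, -1.27 for FOSB, -1.23 for JUN and -1.56 for BTG2, and the same 6 members were 2-fold lower (3.87% of all genes). At day 7 BTG2 differed by -0.69 and was no longer called, which left no member called lower (3.11% of all genes). On that day the direction also turned for FOSB, from -0.19 to 0.61, with 103 CPM in WT and 156 CPM in CF outside mitochondrial genes, and for FOS, from -0.15 to 0.37.

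FOS ranged 1.59-fold over the libraries and more widely over clusters. Clusters were built from these genes among others, and the cluster ranges of all genes were not taken. The ranges are thus descriptions and not known to be particular to the members. In 39 WT clusters of at least 50 cells, FOS ranged 15.8-fold, from 82.2 CPM in cluster 2 to 1297 CPM in cluster 18. FOSB ranged 34.9-fold, from 15.3 CPM in cluster 2 to 533 CPM in cluster 16, and EGR1 7.66-fold between the same clusters 2 and 16, from 103 to 790 CPM. Cluster 2 held 1051 ductal cells at a median percent.mt of 5.38%, and clusters 16 and 18 were at 14.3 and 12.7%. JUN ranged 6.92-fold, from 288 CPM in cluster 13 to 1992 CPM in cluster 19. JUNB ranged 4.94-fold, with cluster 0 highest at 1122 CPM. FOS, FOSB and EGR1 were thus highest in other WT clusters than JUN and JUNB. FOS and FOSB also peaked in different clusters, as did JUN and JUNB, so the peaks alone do not form groups.

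In 29 CF clusters, 1 cluster was lowest for several members. How many of all genes were lowest in that cluster was not counted, so it is not known to be particular to the members. CF cluster 7, 493 centroacinar cells of which 95.9% were of day 9, had 126 CPM of JUN, 100 CPM of JUNB, 92.6 CPM of EGR1, 68.8 CPM of BTG2, 20.5 CPM of FOSB and 10.3 CPM of KLF4, each the lowest of the CF clusters. It was deep, at a median of 30121 UMIs per cell, with a median percent.mt of 8.41%. CF cluster 2 was highest for JUNB at 1064 CPM and for BTG2 at 687 CPM. FOS ranged 5.82-fold in CF, and 2.97-fold without the 4 CF clusters of low UMI count.

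Pearson correlations of log2(CPM + 1) across clusters split the members into groups. They describe 39 WT and 29 CF clusters, which share libraries and depth and are not independent. FOS and FOSB were at 0.90 in WT and 0.55 in CF, FOSB and EGR1 at 0.87 and 0.52, and FOSB and KLF4 at 0.80 and 0.39. JUN and JUNB were at 0.74 and 0.88. FOS and JUN, although their proteins form the classical AP-1 pair, were at -0.02 and -0.15. In single thinned cells JUN was detected more often with FOS than without at WT days 5, 7 and 9 and CF day 7. On the other days the intervals overlapped. Across clusters EGR1 went with FOS in WT (0.84, and 0.06 in CF) and with JUN in CF (0.73, and 0.31 in WT). In single CF cells, however, EGR1 was detected more often with FOS than without at days 2, 7 and 9. Whether these values differ between genotypes was not tested. Spearman correlations of the level with the clusters' median percent.mt were 0.73 for KLF4, 0.59 for FOSB, 0.58 for FOS and 0.51 for EGR1 in WT, and in CF 0.56 for KLF4 and -0.54 for JUNB. In CF, depth moved with JUNB as well, at -0.65 with the clusters' median UMIs. Without the 4 CF clusters of low UMI count, JUN went from -0.19 to -0.62 with percent.mt.

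**Figure D4:**
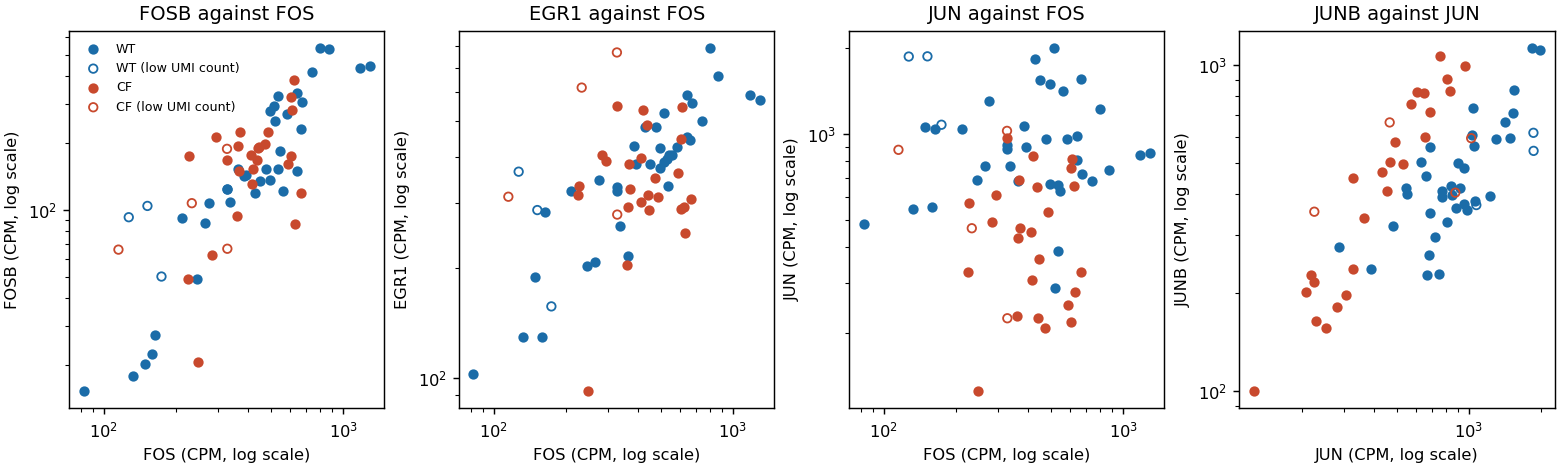
Levels (CPM, log axes) of FOSB, EGR1 and JUN against FOS and of JUNB against JUN, 1 point per cluster of at least 50 cells (39 WT, 29 CF), with open circles for clusters of low UMI count. FOSB lies along a line with FOS in WT (r = 0.90), JUNB with JUN in both genotypes (0.74 and 0.88), and JUN shows no line with FOS (-0.02 and -0.15).

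The genes most like the mean of FOS, FOSB, JUN, JUNB and EGR1 across clusters, among 5631 genes with a mean of at least 20 CPM, were DUSP6, IER3, DUSP1, HBEGF, KLF6, IER2, DCAF8 and GLUD1. Their Pearson r in WT and CF was 0.78 and 0.66 for DUSP6, an ERK phosphatase, 0.69 and 0.74 for IER3 and 0.69 and 0.66 for DUSP1, a MAP kinase phosphatase. HBEGF, a ligand of the EGF receptor, was at 0.47 and 0.84. Being alike across clusters did not mean the same genotype difference. IER3 was at 3484, 2464, 2502 and 1773 CPM in WT and 1516, 1515, 797 and 560 CPM in CF, with every CF library below every WT library. HBEGF was higher in CF on all 4 days, by 0.75, 0.78, 0.76 and 0.62 on the log2 scale, and DUSP6 differed by -0.08, 0.32, 0.33 and 0.20.

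Genes related to the members were taken from lists, each with few tested genes. All genes tested are the background of every list count from here on: 3.47, 3.89, 2.87 and 3.21% of them were at least 2-fold lower in CF at days 2, 5, 7 and 9, 4.40, 2.21, 4.32 and 3.06% higher, and their medians were -0.00, -0.05, 0.13 and 0.08. Of 23 tested other immediate early genes, 3, 2, 5 and 6 were at least 2-fold lower in CF at days 2, 5, 7 and 9 and 1, 2, 1 and 1 higher, with medians of -0.12, -0.22, -0.07 and -0.44. DUSP2, a nuclear MAP kinase phosphatase, was the 1 gene of them 2-fold lower on all 4 days. It was at 5.59, 36.8, 42.8 and 43.6 CPM in WT and at 0.0586, 0.112, 0.432 and 0.360 CPM in CF. DUSP2 passed the filter on the mean only through the WT libraries, where it is high. The counts of the list include DUSP2, so its calls are a description and no support. CCN2, a matrix protein induced by YAP and TGF-beta signalling, was higher in CF by 0.68, 0.96, 1.37 and 0.60, and KLF6 differed by -0.38, -0.49, -0.20 and -0.23. Of 6 tested other AP-1 subunits and partners, none was 2-fold apart on any day. JDP2, a repressor that pairs with JUN proteins, was higher in CF on each day, by 1.00, 0.80, 1.00 and 0.77, with the values printed as 1.00 just under the limit before rounding. MAFF was at 0.23, 0.43, -0.65 and -0.76, and MAFK at 0.99, 0.11, 0.47 and -0.14.

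The EGF family acts upstream of the immediate early genes through ERK. Of 8 tested EGF family ligands and receptors, 2, 2, 1 and 2 were 2-fold higher in CF at days 2, 5, 7 and 9 and none was lower, with medians of 0.75, 0.53, 0.75 and 0.18. Of all genes, 4.40, 2.21, 4.32 and 3.06% were higher. EGF itself was higher on all 4 days, at 0.262, 0.494, 0.916 and 2.29 CPM in WT and 1.98, 8.44, 12.7 and 14.8 CPM in CF. Its mean of 5.24 CPM passed the filter only through the CF libraries, where it is high. The counts of the list include EGF, so its calls are a description and no support. AREG, the EGF receptor ligand amphiregulin, differed by 0.64, -0.05, -0.69 and -0.52, EREG by -0.42, -0.28, -0.84 and -0.74, and EGFR by 0.44, 0.55, 0.97 and 1.12. The list's median high-mt minus low-mt difference was 0.05, 0.86, 1.25 and 1.00 in WT and 0.29, 0.98, 0.95 and 1.75 in CF, and AREG was at 2.04 in CF day 9. Of 9 tested ERK feedback genes, 1 was higher at day 5, 1 was higher and 1 lower at day 9, and none at days 2 and 7. DUSP5 was at 0.14, -0.16, -0.95 and -1.21, PHLDA1 at 0.42, 0.55, 0.03 and 0.50 and DUSP4 at 0.63, 0.05, 0.05 and -0.59.

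Of 8 tested genes known as AP-1 targets, 3, 1, 0 and 3 were 2-fold higher in CF and 0, 1, 1 and 1 lower at days 2, 5, 7 and 9, with medians of 0.50, 0.05, 0.28 and 0.14. Of all genes, 4.40, 2.21, 4.32 and 3.06% were higher and 3.47, 3.89, 2.87 and 3.21% lower. The adhesion receptor CD44 was at -0.59, -0.29, -0.21 and -0.09 and the cyclin CCND1 at -0.62, 1.14, 0.75 and 1.15. Both were lower at day 2, where the list's median was above 0.

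Of the 4 tested BTG and TOB relatives of BTG2, 1 was higher at day 2 and 1 lower at each of days 7 and 9. BTG1 was higher in CF on all 4 days, by 1.20, 0.55, 0.74 and 0.74, the reverse of BTG2, while BTG3 was at -0.25, -0.08, 0.10 and -0.18 and TOB2 at 0.31, -0.13, 0.31 and -0.11. Of 12 tested p53 targets, 3, 4, 0 and 1 were 2-fold lower and none higher, with medians of -0.69, -0.69, -0.44 and -0.48 beside -0.00, -0.05, 0.13 and 0.08 for all genes, of which 3.47, 3.89, 2.87 and 3.21% were lower. MDM2, the p53 ubiquitin ligase, was at -0.70, -1.76, -0.87 and -0.47, CDKN1A at 0.32, -0.69, -0.04 and -0.11, and GADD45A at 0.22, 0.12, 0.11 and 0.38.

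Of 6 tested ATF4 stress genes, beside which ATF3 is induced in the integrated stress response, 1, 3, 1 and 1 were 2-fold lower in CF and none higher, with medians of -0.56, -0.72, -0.47 and -0.40. DDIT3, the stress factor CHOP, was 2-fold lower on all 4 days, at 76.6, 50.4, 68.6 and 43.1 CPM in WT and 15.7, 17.6, 15.9 and 19.5 CPM in CF, with no overlap. ATF4 differed by -0.47, -0.32, -0.24 and -0.27 and DDIT4 by -0.26, -1.29, -0.35 and -0.14. Of 6 tested relatives of KLF4, none was 2-fold apart on any day, with KLF5 at -0.42, 0.00, -0.51 and -0.58, KLF7 at 0.33, 0.02, 0.65 and 0.50 and KLF9 at -0.37, -0.13, -0.54 and -0.69. Of 10 tested heat shock chaperones, 1 was higher at day 2 and none was called otherwise. That gene was HSPB1, a small heat shock protein, at 1.77, 0.05, 0.88 and 0.91, while HSP90AB1 was at -0.11, 0.06, 0.09 and 0.22 and HSP90AA1 at -0.27, -0.05, 0.36 and 0.45.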

How the data were processed

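Single-cell RNA was measured in 8 libraries, 1 per genotype and day. Per the labels and the study's methods, the authors made 10x libraries, counted UMIs with Cell Ranger 5.0.1, and used R 4.1.2 and Seurat. They removed doublets with DoubletFinder, kept cells under 20% mitochondrial RNA, and named clusters by correlation with published data. The deposited matrices hold UMI counts per gene and barcode, and the deposited cell table gives class, cluster and the percent of mitochondrial UMIs. They counted against the ferret assembly ASM1176430v1.1 with an improved transcriptome annotation, which was not used here.

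Of 44243 barcodes, the 32945 in the cell table were used, and no doublet caller was rerun. Barcodes shared by more than 1 library numbered 148. UMIs were summed over cells and expressed as CPM, with a pseudocount of 1 CPM on the log2 scale and a filter of a mean of 5 CPM (9427 genes). No test was possible with 1 library per group, so 95% exact Poisson, conditional binomial and Clopper-Pearson intervals were given. Shares of cells were thinned to 3000 UMIs. The deposited normalized values and lineage scores were not used, and no column lacked a sample (0).

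The members and lists were chosen with earlier results of these data known. The genes named were the 10 members, the 3 most abundant genes of each list, genes 2-fold apart in 1 direction on all 4 days, and the 8 genes most like the members across clusters. A gene that this rule names among the AP-1 targets is not reported here. Gene positions come from RefSeq, not from that annotation, and no sequence was used. Scaling alternatives used edgeR 4.0.16 (TMM) and DESeq2 1.42.0 in R 4.3.3, other work Python 3.11.15, numpy 2.4.6, scipy 1.17.1, pandas 2.3.3 and matplotlib 3.10.9. Alternatives covered scaling, pseudocount, denominator, cells, classes and thinning. On counts simulated for the CF minus WT comparison at day 9 (9427 genes), 100 of 100 genes changed 3-fold and 0 of 100 changed 1.5-fold were called, and 98.0% of intervals held the simulated fold. At days 2, 5 and 7, 95.0, 93.0 and 98.5% did, and at day 7, 99 of 100 genes changed 3-fold were called. These counts carried counting error only, with no variation between cultures or donors, so they check the calculation alone.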

Additional observations from a re-analysis of the deposited data

Results flagged for a closer look

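Between genotypes, the course from day 2 differed in direction for FOS and BTG2. The difference between the mean courses was 0.48 for FOS, with WT at 0.27 to 0.41 and CF at -0.39 to -0.00 on the log2 scale, the CF day 7 value lying within counting error of day 2. Among cells of 5 to 10% percent.mt, FOS outside mitochondrial genes was at 414, 554, 369 and 427 CPM in WT and 462, 461, 468 and 418 CPM in CF at days 2, 5, 7 and 9, so WT was then below day 2 at day 7. It was 0.89 for BTG2, with WT at 0.14 to 0.46 and CF at -1.09 to -0.18. Between classes, the CF minus WT difference had opposite signs on every day compared for FOSB in ductal against centroacinar cells (2.33 apart on average) and in ductal against progenitor cells (2.67), for FOSL1 (2.14) and ATF3 (1.20) in ductal against centroacinar cells, and for JUNB in centroacinar against progenitor cells (1.53). The ductal FOSL1 difference was within counting error at day 7, with 39 CF UMIs (13.8 CPM, 9.80 to 18.8, beside 9.79 in WT), and at day 9, with 14 CF UMIs (11.8 CPM, 6.43 to 19.7, beside 8.50 in WT). With every cluster of the ductal name, FOSL1 at day 9 was at 6.31 CPM in CF and 8.91 CPM in WT, the other direction. JUNB was at 0.45 to 1.38 in centroacinar and -1.47 to -0.29 in progenitor cells. These 7 values come from 1 library per genotype and day, the days of a genotype share the same pooled donors, and none of the differences was tested.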

How the results depend on the processing

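No paired analysis was possible because the results come from no test and the labels give no replicate numbers, and the days of a genotype share 1 donor pool. The counts below show how calls moved, and shares of all genes under the alternatives are given only where printed above. The other counts have no background under their own setting, so they are not results about the members. With WT limited to SOX2-low clusters, the count of members called higher in CF at day 2 went from 1 to 0. BTG2, at -1.27, joined JUN and JUND among those lower at day 2. Those lower went from 0 to 1 at day 5 (JUN), 1 to 2 at day 7 (JUN, BTG2) and 6 to 2 at day 9 (JUN, BTG2), and FOSL1 at day 9 reversed, from -1.32 to 0.23. At day 2 with each class weighted equally, JUND was at -0.80 and no longer called lower in CF, while KLF4, at -1.03, was. At day 5, the count lower in CF was 1 (JUND) with a pseudocount of 0.1 CPM or every deposited barcode, and 2 (JUND, KLF4) with each class weighted equally. At day 7 it was 3 (JUN, BTG2, KLF4) under TMM, DESeq2 size factors or equal classes, 2 without mitochondrial UMIs in the denominator, with every barcode or with equal cells, and 0 among cells of 5 to 10% percent.mt. In the CF course it was 1 (FOSL1), not 3, with equal classes. With every cluster of the deposited class name, a choice added after the data were seen, ductal day 9 had 1 member higher (FOS) and 3 lower (JUN, JUNB, BTG2), centroacinar day 7 had 2 lower, and progenitor day 5 had 5 lower in place of 7. For percent.mt, splitting at the median gave 2, 2 and 0 members higher at WT days 5, 7 and 9, and drawing high-mt and low-mt cells within classes gave 2 at WT day 5 and 0 at day 7. With all UMIs in the denominator, ATF3 at WT day 7 was at 0.94 and no longer called, which left 4 members. In CF, JUNB was called lower at day 2 (1) and day 7 (1) with all UMIs in the denominator, and at day 7 (1) with cells of at least 3000 UMIs. CF day 5 had 1 member lower (JUNB) by the median split or within classes. KLF4 at CF day 9 was lost (0) with all UMIs, the median split or within classes. Leaving out low-UMI clusters took the CF cluster range of FOS from 5.82-fold to 2.97-fold and of JUND from 9.60-fold to 3.50-fold. Apart from the choices that change the cells or genes counted, the cause was not tested.

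Leaving out low-UMI clusters or shared barcodes, also added after the data were seen, turned the sign of 0 member values. SOX2-low WT cells turned 14 of 40. TMM moved the median of all genes at day 7 by -0.20 and in the CF course by -0.25. Over whole libraries, JUN, JUND and BTG2 were lower in CF on all 4 days in each alternative run, and KLF4 in each but the SOX2-low one. Inside single classes this did not hold throughout. At day 2 the ratio was 1.07 (1.05 to 1.09) for BTG2 in ductal cells and 1.04 (0.973 to 1.11) for JUND in progenitor cells. Ductal KLF4 was at 1.14, 0.887 and 1.06 at days 5, 7 and 9. Thinning set the level of every share of cells. With 1 library per group, no difference can be separated from variation between cultures or donors.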
